A study of Mus musculus with 24 samples.

Results

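The interaction of an ERK1/2 inhibitor and a CDK4/6 inhibitor was measured gene by gene in mouse sciatic nerve, from all 24 RNA sequencing libraries of the series. All mice carried the genotype Nf1 flox/flox PostnCre+, in which Cre under the periostin promoter deletes the floxed Nf1 alleles in the cells where that promoter is active, and all samples had the tumor stage label plexiform neurofibroma. The groups, each treated for 1 week, were the combination of abemaciclib with LY3214996 (6 libraries), LY3214996 alone (6), abemaciclib alone (6) and vehicle (6). All 4 groups carry the Nf1 deletion, the labelled tissue is sciatic nerve, and no label says whether the 6 libraries of a group came from separate animals, so p-values measure the spread between these libraries. The labels give neither age nor sex.

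Nf1 encodes neurofibromin, which switches RAS off, and a plexiform neurofibroma is a benign nerve sheath tumor that forms when neurofibromin is lost. RAS activates the kinases RAF, MEK and ERK. ERK switches on transcription factors such as the early growth response and PEA3 ETS families, and also its own brakes, the Sprouty and Spred proteins and the dual-specificity phosphatases. CDK4 and CDK6, with D cyclins, inactivate RB and so release E2F, which drives the genes of DNA replication. LY3214996 blocks ERK1/2, and abemaciclib blocks CDK4/6.

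For each gene the interaction was the log2 difference combination minus LY3214996 minus abemaciclib plus vehicle. It is 0 where the combination differs from vehicle by the sum of the differences of the single drugs. A gene lay beyond the sum where its interaction had the sign of its combination minus vehicle difference, and short of it where the signs were opposite. The table lists 24421 genes, of which 15385 passed the count filter. In edgeR's quasi-likelihood test, adjusted by the Benjamini-Hochberg method, 0 of them (0%) had an interaction at an adjusted p under 0.05. The smallest adjusted p of that edgeR test was 0.160, for Cdo1. The unadjusted p was under 0.05 for 568 genes (3.69%), 247 with a positive interaction (1.61%) and 321 with a negative interaction (2.09%). limma-voom also called 0 genes, while DESeq2 called 51, all of them negative. The interaction was positive for 49.8% and negative for 50.2% of tested genes. Its median standard error was 0.264 on the log2 scale, against 0.187 for combination minus vehicle, so that an interaction needs a larger size than a single comparison to pass.

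Libraries held 5391543 to 42321550 counted reads. Albumin, a liver transcript, was at 3155 to 4543 CPM in 3 libraries (LY3214996 3, abemaciclib 1 and abemaciclib 3) and at most 1.61 CPM in the other 21. Of the 51 genes called by DESeq2, 38 had a mean in those 3 libraries over 10 times the mean of the other 21, and without those libraries DESeq2 called 1, Cdo1 (interaction -2.08, adjusted p = 0.00320). The mean log2 CPM of 20 neuron and axon genes was below 6 in 6 libraries, which were combination 3 and 5, abemaciclib 3 and 5, and vehicle 1 and 5. Sample titles are numbers that start with 4 or 5. The labels do not say what the first digit stands for, and it is unequally spread, with 3 titles starting with 4 in the combination, 4 in LY3214996, 3 in abemaciclib and 2 in vehicle. Y-linked transcripts summed to over 100 CPM in 3 combination, 3 LY3214996, 4 abemaciclib and 4 vehicle libraries. In 3 libraries Xist was above 100 CPM and Y-linked transcripts above 10 CPM. They were LY3214996 3 (882 CPM Xist and 16.2 CPM Y-linked), abemaciclib 2 (767 and 219) and abemaciclib 3 (3037 and 16.6). Without these 3 libraries edgeR called 0 genes for the interaction, with 439 at an unadjusted p under 0.05, and 70 genes in combination against vehicle. In bulk tissue, fewer cells of a type and less RNA per cell cannot be told apart.

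Etv4, Spry4, Egr1 and Egr3 had lower fitted levels in the combination than the sum of the single-drug differences, while the wider list of ERK output genes had no shared direction. Etv4, a PEA3 ETS factor induced by ERK, ranged from 3.41 to 8.99 CPM in the combination (median 5.95), from 7.57 to 19.2 in LY3214996 (median 16.1), from 14.1 to 24.4 in abemaciclib (median 18.5) and from 14.1 to 28.9 in vehicle (median 16.6). Every combination library was below every abemaciclib and vehicle library, and the combination overlapped with LY3214996 through 1 LY3214996 library. Etv4 fell in the combination against vehicle (log2 difference -1.60, adjusted p = 0.0169 in edgeR), whereas it differed by -0.33 in LY3214996 and by -0.0015 in abemaciclib. The interaction was -1.27 ± 0.34 (SE), with an unadjusted p of 0.00101 and an adjusted p of 0.409 in edgeR's quasi-likelihood test. Against abemaciclib alone Etv4 was the only gene called, lower in the combination (-1.60, adjusted p = 0.0167 in edgeR, 1 of 15385 genes, 0.0065%). Against LY3214996 alone Etv4 was not called, with a difference of -1.27 (adjusted p = 0.221 in edgeR). Its relatives gave interactions of -0.62 ± 0.30 for Etv5 (unadjusted p = 0.0534 in edgeR) and 0.20 ± 0.23 for Etv1. The list of other ERK output genes shares no member with the lists of brakes and early genes. Of its 18 tested members 10 had a positive and 8 a negative interaction (median 0.07), beside 49.8% positive over all tested genes. In it 0 genes were at an unadjusted p under 0.05, beside 3.69% of all tested genes. The smallest p values of that list belonged to Phlda1, with an interaction of -0.73 ± 0.37, and Hmga2, with -0.76 ± 0.50. The median difference of that list from vehicle was -0.16 in the combination, -0.26 in LY3214996 and 0.010 in abemaciclib. Its median interaction moved by over 1.5 times without 11 of the 24 libraries taken singly, and lay between -0.15 without combination 3 and 0.13 without LY3214996 6.

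**Figure D1:**
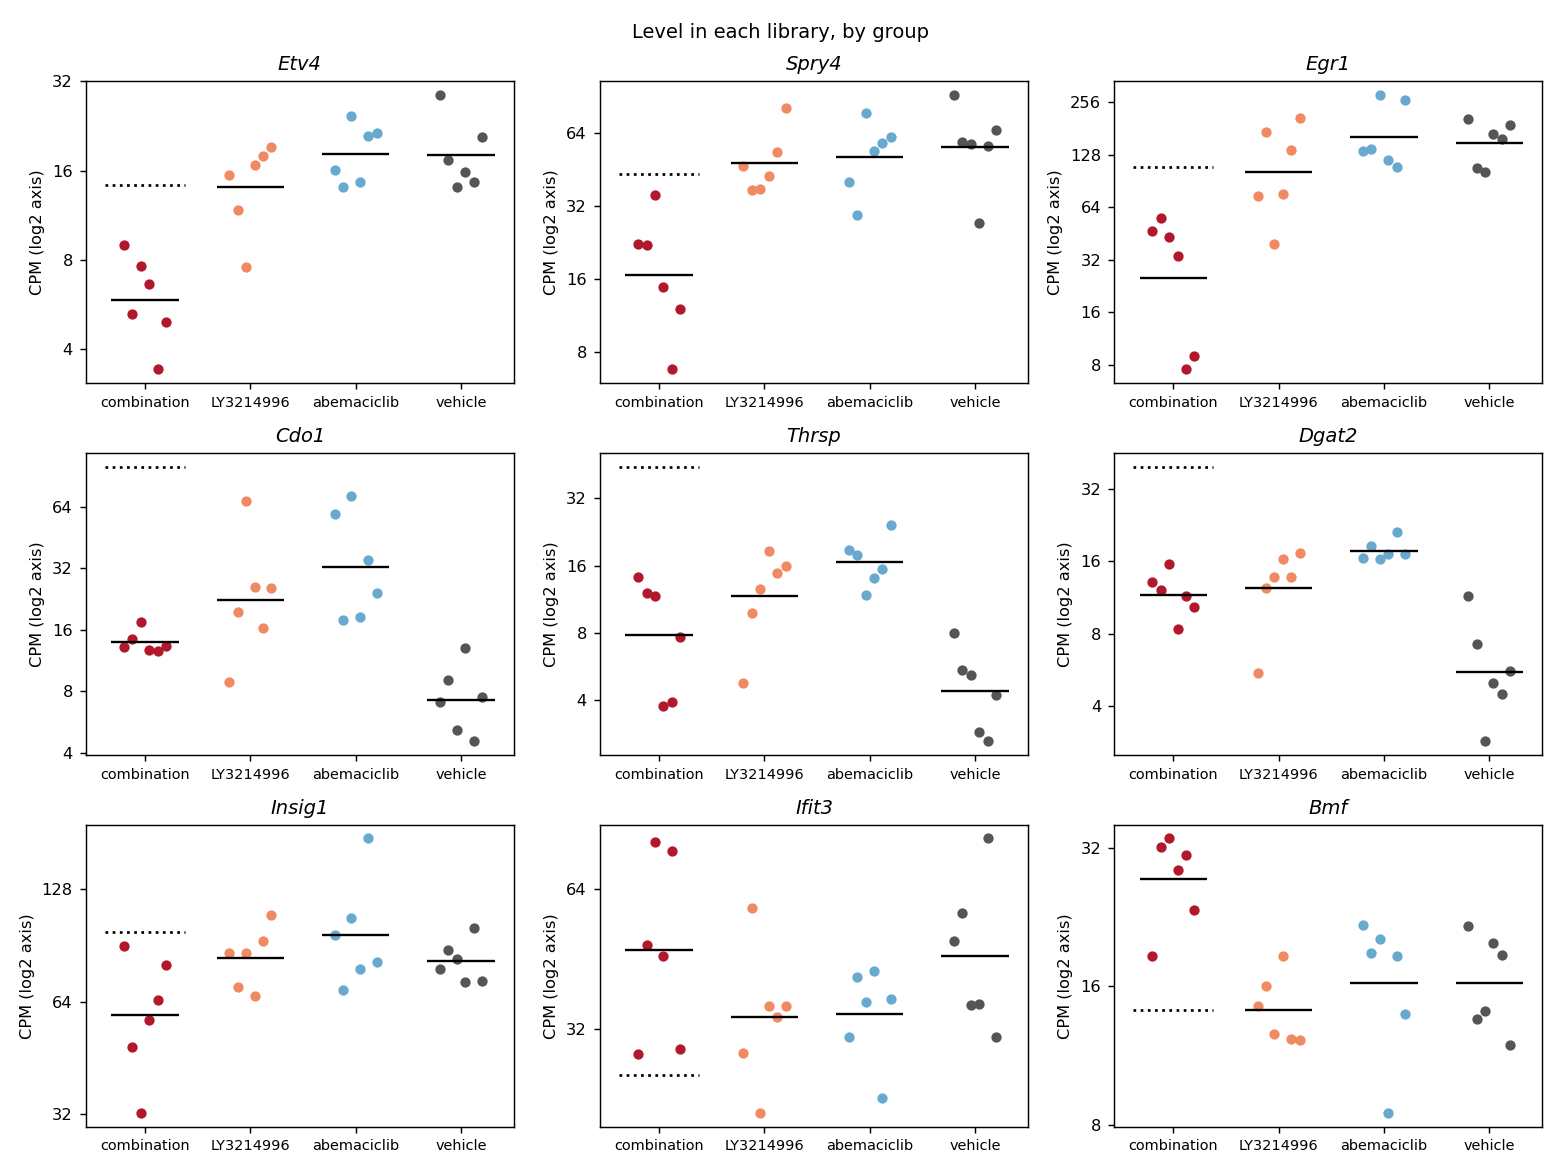
CPM of 9 genes in each library on a log2 axis, with the 4 groups side by side. Points are libraries, solid lines are means of log2 CPM, and the dotted line over the combination is the level that the sum of the single-drug differences predicts. The combination means of Etv4, Spry4 and Egr1 lie below that line. Those of Cdo1, Thrsp and Dgat2 lie below it while above the vehicle mean, with libraries that overlap vehicle, and those of Ifit3 and Bmf lie above it.

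Among the brakes on the pathway, Spry4, which restrains RAS activation, ranged from 6.76 to 35.5 CPM in the combination (median 18.4), from 37.4 to 81 in LY3214996 (median 44.6), from 29.5 to 77.1 in abemaciclib (median 56.1) and from 27.2 to 92 in vehicle (median 58.2). The combination lay wholly below LY3214996 and overlapped with abemaciclib and vehicle. Spry4 fell in the combination (log2 difference -1.66, adjusted p = 0.0399 in edgeR), against differences of -0.26 in LY3214996 and -0.16 in abemaciclib, and its interaction was -1.24 ± 0.45 (unadjusted p = 0.0117, adjusted p = 0.988). All 6 tested Sprouty and Spred genes had a negative interaction, beside 50.2% of all tested genes, with a median of -0.24 that was -0.15 without combination 6. Only 1 of them, Spry4, was at an unadjusted p under 0.05, beside 2.09% negative at that p over all tested genes. The others were smaller, such as Spred2 at -0.28 ± 0.15, Spry2 at -0.20 ± 0.23 and Spred1 at -0.19 ± 0.19. Of the 9 dual-specificity phosphatases that act on MAP kinases, 4 had a positive and 5 a negative interaction, beside 50.2% negative over all tested genes. Their median was -0.18, between -0.30 without combination 3 and 0.0059 without LY3214996 3. Dusp4, a nuclear ERK phosphatase, ranged from 1.79 to 6.91 CPM in the combination (median 3.53), from 4.83 to 9.29 in LY3214996 (median 7.60), from 4.07 to 11.1 in abemaciclib (median 7.67) and from 5.81 to 11 in vehicle (median 7.03), with an interaction of -0.96 ± 0.38 (unadjusted p = 0.0187 in edgeR). Dusp6, the cytoplasmic ERK phosphatase, had medians of 111 CPM in the combination, 160 in LY3214996, 213 in abemaciclib and 214 in vehicle, and an interaction of -0.48 ± 0.26.

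Immediate early genes, which answer a signal without new protein synthesis, did not share a direction. Of 23 tested, 13 had a positive and 10 a negative interaction, beside 49.8% positive over all tested genes. Their median was 0.14, between 0.012 without abemaciclib 5 and 0.21 without abemaciclib 3. At an unadjusted p under 0.05 were 1 positive and 5 negative, beside 1.61% positive and 2.09% negative over all tested genes. Egr1, an ERK-induced zinc finger factor, ranged from 7.51 to 55.1 CPM in the combination (median 38.1), from 39.3 to 206 in LY3214996 (median 106), from 108 to 281 in abemaciclib (median 136) and from 102 to 205 in vehicle (median 163). The combination lay wholly below abemaciclib and vehicle. Its differences from vehicle were -2.25 in the combination, with an adjusted p of 0.05001 in edgeR that fell just outside the threshold, -0.40 in LY3214996 and 0.17 in abemaciclib. The interaction of Egr1 was -2.02 ± 0.63 (unadjusted p = 0.00396, adjusted p = 0.846 in edgeR). Egr3 fell in the combination (-2.28, adjusted p = 0.0361 in edgeR) and had an interaction of -1.24 ± 0.59. Fosb, a subunit of AP-1, had an interaction of -1.95 ± 0.85. In that value library LY3214996 6 weighs heavily, with 39.8 CPM against 2.94 to 12 in the rest of its group, and without that library the interaction was -0.94. Atf3, a stress-induced member of the ATF family, went the other way. It ranged from 16.6 to 38 CPM in the combination (median 27.7), from 8.68 to 20.05 in LY3214996 (median 9.84), from 6.72 to 18.5 in abemaciclib (median 11.7) and from 7.5 to 14.2 in vehicle (median 9.05). Atf3 rose in the combination (1.42, adjusted p = 0.0361 in edgeR), and its interaction was 0.83 ± 0.37 (unadjusted p = 0.0345).

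These genes had larger fitted interactions among libraries whose title starts with 5 than among those whose title starts with 4. In a fit with 8 means, the interaction in titles that start with 5 was -2.10 for Etv4, -2.75 for Spry4, -3.44 for Egr1, -3.02 for Egr3, -2.02 for Dusp4 and 2.04 for Atf3. In titles that start with 4 it was -0.48 for Etv4, -0.0073 for Spry4, -1.14 for Egr1, -0.094 for Egr3, 0.14 for Dusp4 and -0.16 for Atf3, so that Dusp4 and Atf3 had the opposite sign there. The smallest unadjusted p of this difference among them was 0.00121, for Spry4 (adjusted p = 0.538 in edgeR), and for Egr1 it was 0.0555. The difference between the title series passed an adjusted p of 0.05 for 0 of 15385 genes (0%) in edgeR, with 915 (5.95%) at an unadjusted p under 0.05.

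In combination minus vehicle 19 of the 15385 genes passed an adjusted p of 0.05 (0.123%), 17 lower (0.11%) and 2 higher (0.013%), and 1770 (11.5%) had an unadjusted p under 0.05. In contrast 0 passed in either single drug against vehicle (0%), where 975 genes (6.34%) in LY3214996 and 480 (3.12%) in abemaciclib had an unadjusted p under 0.05. Of the 19, 16 lay beyond the sum, 15 of the 17 lower and 1 of the 2 higher. Over all tested genes 7757 (50.4%) lay beyond and 7628 (49.6%) short of the sum, and among the 1770 genes 1186 lay beyond it (67%). The interaction and combination minus vehicle are orthogonal for equal groups, yet both use the combination and vehicle libraries, and no test was made of these shares. Thbs1, a secreted matricellular protein, had medians of 56.1 CPM in the combination, 145 in LY3214996, 279 in abemaciclib and 339 in vehicle, with the combination wholly below vehicle. Its differences were -2.33 in the combination, -1.04 in LY3214996 and -0.18 in abemaciclib, and its interaction was -1.10 ± 0.60. Fbn2, a fibrillin of elastic microfibrils, had medians of 13.3 CPM in the combination, 34.6 in LY3214996, 39.7 in abemaciclib and 63 in vehicle, with an interaction of -0.82 ± 0.55 on the log2 scale and of the opposite sign on the linear CPM scale. The 3 genes short of the sum were Lzts3 (interaction -0.0074 ± 0.135), Pomk (0.062 ± 0.132) and Arsb (0.026 ± 0.149), for which the sum and the combination differed by less than the standard error. The same held for some genes counted as beyond it, namely Osgin2 (-0.062 ± 0.143), Megf10 (-0.10 ± 0.21), Bank1 (-0.31 ± 0.35) and BC039771 (-0.315 ± 0.321). Of the 19, 5 had an interaction at an unadjusted p under 0.05 in edgeR, beside 3.69% of all tested genes. Among libraries whose title starts with 4, 8 of the 19 lay beyond the sum, and among those that start with 5, 19 of 19 did. The share of all tested genes beyond the sum was not computed within a title series. Groups are unequal there, and the 19 were called on these same libraries, so no conclusion is drawn from these counts. The set of 19 itself rests on single libraries. Leaving out 1 library brought the count of called genes to 7 or fewer in 15 of 24 cases, and to 0 without combination 2 or combination 5, while it was 94 without vehicle 4 and 54 without LY3214996 3. It was 0 without the 6 neuron-poor libraries and 108 without the 3 libraries with albumin.

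**Figure D2:**
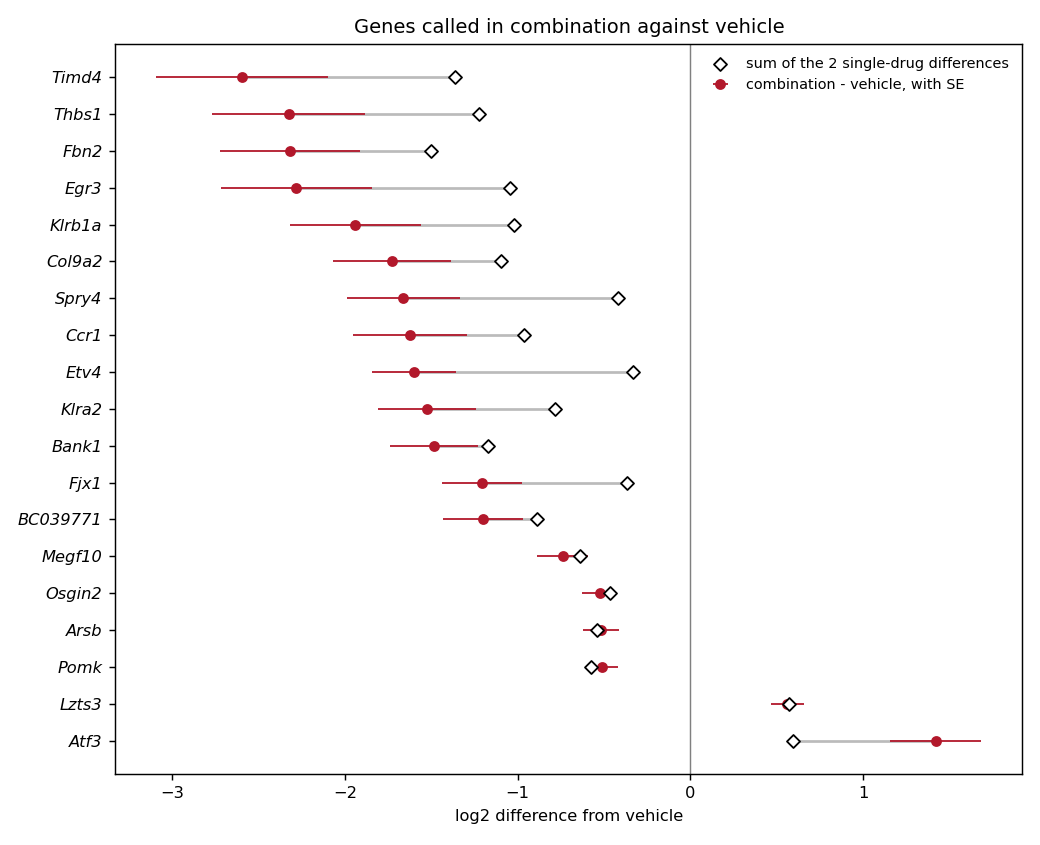
The 19 genes called in combination against vehicle, with the log2 difference of the combination (filled, bars are SE) and the sum of the single-drug differences (diamonds). The sum is nearer 0 than the combination for 16 genes, and the values nearly coincide for Lzts3, Pomk, Arsb and Osgin2.

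No gene of the cell division lists passed the test for the interaction, and the size of the mitosis list's median depended on single libraries. Of 37 genes of G2/M and mitosis 24 had a negative and 13 a positive interaction (median -0.31), beside 50.2% negative over all tested genes. Of each sign 2 were at an unadjusted p under 0.05, beside 1.61% positive and 2.09% negative over all tested genes. That median was -0.19 without vehicle 4, -0.18 without LY3214996 6, -0.17 without abemaciclib 3 and -0.20 without abemaciclib 6, and it was 0.0092 without the 3 libraries that held both Xist and Y-linked transcripts. Their median difference from vehicle was -0.66 in the combination, -0.24 in LY3214996 and -0.26 in abemaciclib. Mki67, a marker of cycling cells, ranged from 1.01 to 10.8 CPM in the combination (median 3.67), from 8.71 to 19.7 in LY3214996 (median 9.87), from 2.62 to 19.98 in abemaciclib (median 9.06) and from 3.24 to 21.6 in vehicle (median 17), and its interaction was -0.96 ± 0.73 (unadjusted p = 0.198 in edgeR), with -0.63 without abemaciclib 3 and -1.49 without combination 3. Bub1b, a kinase of the spindle checkpoint, differed from the list, with 5.51 to 10.6 CPM in the combination, 0.563 to 6.01 in LY3214996, 1.51 to 5.05 in abemaciclib and 1.09 to 6.86 in vehicle, and an interaction of 1.41 ± 0.59 (unadjusted p = 0.0249 in edgeR). Of 37 E2F target and replication genes 21 had a positive and 16 a negative interaction (median 0.04, between -0.015 without vehicle 3 and 0.098 without LY3214996 2). Beside them 49.8% of all tested genes were positive. Of these 37 genes 0 were at an unadjusted p under 0.05, beside 3.69% of all tested genes. For the 19 genes of the D cyclin, CDK4/6 and RB axis the counts were 13 positive and 6 negative (median 0.06, between -0.084 without combination 3 and 0.11 without combination 6), beside 49.8% positive over all tested genes. Cyclin D1 (Ccnd1) had an interaction of 0.17 ± 0.53, which spans a wide range. Nf1 itself had medians of 338 CPM in the combination, 387 in LY3214996, 337 in abemaciclib and 357 in vehicle, with an interaction of -0.10 ± 0.13, and Postn, whose promoter drives Cre, had an interaction of 0.02 ± 0.59.

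Adipocyte and triglyceride storage genes lay short of the sum in 13 of 19 cases, beside 49.6% of all tested genes, while 6 of 15 genes of fatty acid synthesis did. Of 19 adipocyte and triglyceride storage genes 15 had a level above vehicle in the combination (56.4% of all tested genes), 14 in LY3214996 (50%) and 19 in abemaciclib (48.2%). In combination against vehicle 0 of them were called, beside 0.123% of all tested genes. Dgat2, which makes triglyceride from diacylglycerol, ranged from 8.38 to 15.7 CPM in the combination (median 11.8), from 5.50 to 17.3 in LY3214996 (median 13.8), from 16.4 to 21.2 in abemaciclib (median 17.2) and from 2.86 to 11.5 in vehicle (median 5.30). The abemaciclib libraries lay wholly above those of the combination and of vehicle. The differences from vehicle were 0.95 in the combination, 1.10 in LY3214996 and 1.53 in abemaciclib, so that the sum was 2.64, and the interaction was -1.69 ± 0.36 (unadjusted p = 9.67e-05, adjusted p = 0.222 in edgeR). Thrsp, a regulator of fatty acid synthesis that belongs to the synthesis list, ranged from 3.76 to 14.2 CPM in the combination (median 9.68), from 4.77 to 18.5 in LY3214996 (median 13.7), from 11.8 to 24.4 in abemaciclib (median 16.6) and from 2.60 to 7.99 in vehicle (median 4.69). Its interaction was -2.39 ± 0.49 (unadjusted p = 6.63e-05, adjusted p = 0.222 in edgeR). Of the 19 adipocyte and triglyceride storage genes 17 had a negative interaction (median -1.78), beside 50.2% of all tested genes, and 11, all negative, were at an unadjusted p under 0.05, beside 2.09% of all tested genes. The median difference of these 19 genes was 0.81 in the combination, 0.99 in LY3214996 and 1.53 in abemaciclib. Pparg, the master regulator of fat cells, had an interaction of -1.79 ± 0.54, and Plin1, which coats lipid droplets, of -2.60 ± 0.87. Of 15 tested fatty acid synthesis genes 11 had a negative and 4 a positive interaction (median -0.23, and -0.14 without abemaciclib 4), beside 50.2% negative over all tested genes. Thrsp was negative and Fads2 positive at an unadjusted p under 0.05, beside 2.09% negative and 1.61% positive over all tested genes. By the sign rule 9 of these 15 lay beyond the sum, and their median difference from vehicle was 0.02 in the combination, -0.0083 in LY3214996 and 0.07 in abemaciclib. Fads2, a fatty acid desaturase, ranged from 90.7 to 149 CPM in the combination (median 103), from 69.5 to 112 in LY3214996 (median 84.5), from 89.4 to 102 in abemaciclib (median 96.6) and from 77.6 to 146 in vehicle (median 103), so that all groups overlapped, and its interaction was 0.49 ± 0.22 (unadjusted p = 0.0339 in edgeR). The adipocyte list level of single libraries ran from 2.34 to 3.49 mean log2 CPM in the combination, from 1.85 to 3.75 in LY3214996, from 3.01 to 4.39 in abemaciclib and from 1.08 to 3.22 in vehicle. Adiponectin, a defining fat cell transcript, was at 0.623 to 45.2 CPM over all 24 libraries. The part of fat attached to the nerve in these values was not tested. The adipocyte list's median interaction was -2.52 in titles that start with 5 and -0.82 in titles that start with 4.

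Cdo1, the first enzyme of cysteine breakdown and abundant in liver and fat, had the smallest p of all genes. It ranged from 12.6 to 17.4 CPM in the combination (median 13.3), from 8.88 to 68.7 in LY3214996 (median 22.5), from 17.9 to 72.7 in abemaciclib (median 29.7) and from 4.55 to 13 in vehicle (median 7.31). All abemaciclib libraries were above all combination libraries. The differences from vehicle were 0.84 in the combination, 1.81 in LY3214996 and 2.28 in abemaciclib, and the interaction was -3.25 ± 0.58 (unadjusted p = 1.04e-05, adjusted p = 0.160 in edgeR). Its highest values in the single-drug groups, 68.7, 72.7 and 59 CPM, were in the libraries with albumin. Cdo1 passed in edgeR without LY3214996 1 (interaction -3.43, adjusted p = 0.0359). Mlxipl, the glucose-sensing factor ChREBP, and Slc6a13, a transporter of GABA and taurine, had fitted levels above vehicle with each drug and below it with both, and no difference from vehicle was called. Mlxipl had medians of 3.12 CPM in the combination, 6.93 in LY3214996, 8.48 in abemaciclib and 4.42 in vehicle, with an interaction of -1.77 ± 0.38 (unadjusted p = 0.000127, adjusted p = 0.222 in edgeR). Slc6a13 had 1.98 to 3.84 CPM in the combination, 4.03 to 11.1 in LY3214996, 4.13 to 14.7 in abemaciclib and 2.04 to 6.62 in vehicle, with an interaction of -2.26 ± 0.49 (adjusted p = 0.222 in edgeR). The combination lay wholly below both single drugs for Slc6a13. By the sign rule both genes count as beyond the sum, although the sum of the single drugs points the other way.

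The remaining genes of the 8 with the smallest p among negative interactions, counted over genes whose mean log2 CPM reached 1 and without predicted genes and pseudogenes, were Hp, Pon1 and Cyp2f2, and their highest values were in the 3 libraries with albumin. Pon1, a paraoxonase secreted by liver, was at 37.1, 27.9 and 35.4 CPM in LY3214996 3, abemaciclib 1 and abemaciclib 3, and at most 6.82 CPM in any other library. Cyp2f2, a cytochrome of liver and airway, was at 61.9, 39.4 and 64.9 CPM there, and at most 3.06 CPM elsewhere. Haptoglobin (Hp), an acute-phase protein also made by fat cells, was at 48.2, 48.5 and 53.7 CPM there, and at most 32 CPM elsewhere. All 3 of these libraries belong to single-drug groups.

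By the sign rule all 24 tested genes of cholesterol synthesis and uptake lay beyond the sum, beside 50.4% of all tested genes. The median sum of their single-drug differences was 0.13, however, and so pointed the other way from the median of the combination. Of 24 tested members 23 had a negative interaction (median -0.58), beside 50.2% of all tested genes. At an unadjusted p under 0.05 were 2, both negative, beside 2.09% of all tested genes. The median difference from vehicle was -0.43 in the combination, 0.06 in LY3214996 and 0.05 in abemaciclib. In each of these 0 members were called, beside 0.123%, 0% and 0% of all tested genes. Insig1, which holds the sterol sensor SCAP in the endoplasmic reticulum, ranged from 32.2 to 90.3 CPM in the combination (median 60.7), from 66.3 to 109 in LY3214996 (median 86.3), from 68.7 to 175 in abemaciclib (median 88.9) and from 72.4 to 101 in vehicle (median 80.7), so that the groups overlapped. Its interaction was -0.75 ± 0.31 (unadjusted p = 0.0239, adjusted p = 0.988 in edgeR). Tm7sf2, a sterol reductase, had medians of 4.14 CPM in the combination, 8.36 in LY3214996, 7.16 in abemaciclib and 6.15 in vehicle, with an interaction of -1.15 ± 0.45 (unadjusted p = 0.0172 in edgeR). The list level per library ran from 4.15 to 5.48 mean log2 CPM in the combination, from 5.02 to 5.68 in LY3214996, from 5.07 to 5.92 in abemaciclib and from 4.88 to 5.57 in vehicle. Without the 6 neuron-poor libraries 22 of 24 interactions were negative and the median was -0.26.

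**Figure D3:**
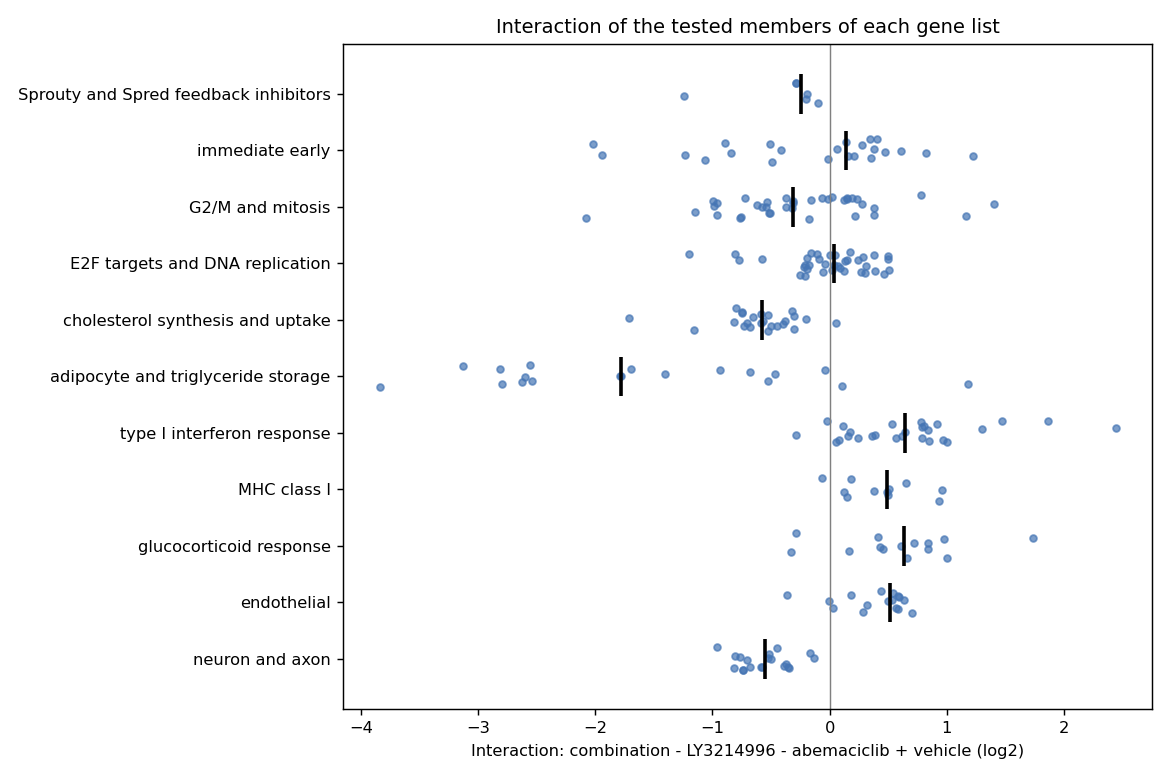
Interaction on the log2 scale of each tested member of 11 gene lists, with black bars at list medians. Cholesterol genes lie left of 0 with 1 exception and adipocyte genes with 2, interferon genes lie right of 0 with 2 exceptions, and the early genes and E2F targets spread over both sides.

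Type I interferon response genes form the antiviral program that the factor ISGF3 switches on, and their interactions were mostly positive. Of 27 tested 25 had a positive interaction (median 0.65), beside 49.8% of all tested genes. At an unadjusted p under 0.05 were 4, all positive, beside 1.61% of all tested genes. The median difference from vehicle was 0.07 in the combination, -0.22 in LY3214996 and -0.33 in abemaciclib. Ifit3, an interferon-induced antiviral protein, ranged from 28.3 to 80.8 CPM in the combination (median 47.1), from 21.1 to 58.2 in LY3214996 (median 34.8), from 22.7 to 42.7 in abemaciclib (median 36.8) and from 30.8 to 82.2 in vehicle (median 42.8). All 4 groups overlapped, and its interaction was 1.00 ± 0.40 (unadjusted p = 0.0198, adjusted p = 0.988 in edgeR). Ifi44 was at 14.4 and 24.9 CPM in combination 2 and 3 and at 2.15 to 4.39 CPM in the rest of the combination, against 1.68 to 6.26 in LY3214996, 1.77 to 5.42 in abemaciclib and 2.96 to 7.69 in vehicle, with an interaction of 1.86 ± 0.75 (unadjusted p = 0.0213) that was 1.15 without combination 3. Without the 6 neuron-poor libraries 16 of 27 were positive with a median of 0.07, and the part of those libraries' makeup was not tested further. Of 11 class I antigen presentation genes 10 had a positive interaction (median 0.49), beside 49.8% of all tested genes. The list was led by H2-T23 at 0.96 ± 0.45, which was 0.60 without vehicle 4. The median of the 11 was 0.27 without vehicle 4 and 0.31 without combination 3, and without the 6 neuron-poor libraries the counts were 7 of 11 with a median of 0.07.

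Stretches of interferon gene promoters are shown because many of these genes hold the same motif. Promoter windows from 250 bases before to 50 bases after the start, taken from RefSeq in build GRCm38.p6, were at hand for 19 of the 27 genes, and 11 (57.9%) held the interferon-stimulated response element, searched as GAAA, any 2 bases and GAAA again on either strand, against 3.69% of the 11475 tested genes with a window. The 6 members with a match and the smallest interaction p are given as 30 bases of the gene's strand, with the first match in capitals, which reads TTTC, any 2 bases and TTTC where the element lies on the other strand.
Ifit3, chr19:34583363-34583392, plus strand: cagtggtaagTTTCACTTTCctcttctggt
Ifit3b, chr19:34607759-34607788, plus strand: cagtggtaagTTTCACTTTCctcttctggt
Isg15, chr4:156200877-156200906, minus strand: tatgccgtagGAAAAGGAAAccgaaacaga
Oas1a, chr5:120907526-120907555, minus strand: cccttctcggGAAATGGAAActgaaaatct
Oas3, chr5:120777715-120777744, minus strand: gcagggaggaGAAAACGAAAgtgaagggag
Ifit1, chr19:34640775-34640804, plus strand: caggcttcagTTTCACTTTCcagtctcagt
Ifit3 and Ifit3b share all 30 bases, and reads of such near-identical genes may be divided between them. The interactions of these genes were 1.00 ± 0.40 for Ifit3, 0.79 ± 0.39 for Ifit3b, 0.97 ± 0.50 for Isg15, 1.47 ± 0.77 for Oas1a, 2.44 ± 1.31 for Oas3 and 0.79 ± 0.45 for Ifit1, and only that of Ifit3 was at an unadjusted p under 0.05. Without vehicle 5 they were 0.58 for Isg15 and 0.44 for Ifit1, and without combination 3 that of Oas3 was 1.31. The interaction of Oas3 changed sign to -2.09 in titles that start with 5 and to -0.44 in limma-voom with sample quality weights. That of Ifit3b was -0.015 without the neuron-poor libraries. The other members with a match had interactions of 0.39 ± 0.23 for Ifih1, 0.18 ± 0.16 for Ddx58 and 0.25 ± 0.33 for Bst2. Rsad2 (-0.29 ± 0.33) and Stat2 (-0.022 ± 0.19), the list members with a negative interaction, also held a match. A match is a description of these letters and not a site shown to be used. In the cholesterol list the letters TCACNCCAC of a sterol regulatory element on either strand, a motif picked after the list's values were seen, were found in 1 of 16 windows (6.25%), against 1.45% of tested genes.

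Genes induced by glucocorticoids differed with the first digit of the sample title. Of 14 tested 12 had a positive interaction (median 0.63, and 0.36 without vehicle 4), beside 49.8% of all tested genes. At an unadjusted p under 0.05 were 0, beside 3.69% of all tested genes. Among libraries whose title starts with 5 all 14 were positive (median 1.94), beside 50.5% of all tested genes, and among those whose title starts with 4 all 14 were negative (median -0.95), beside 52.8% of all tested genes. In the fit with 8 means the difference of the interaction between the title series was at an unadjusted p under 0.05 for 10 of these 14 genes, beside 5.95% of all tested genes, and 0 passed the adjusted threshold. The mean level of the list in titles that start with 5 was 7.24 mean log2 CPM in the combination (n = 3), 5.45 in LY3214996 (n = 2), 6.17 in abemaciclib (n = 3) and 6.29 in vehicle (n = 4). In titles that start with 4 it was 6.17 in the combination (n = 3), 5.90 in LY3214996 (n = 4), 6.97 in abemaciclib (n = 3) and 5.86 in vehicle (n = 2). Fkbp5, a chaperone of the glucocorticoid receptor, had medians of 122 CPM in the combination, 42.6 in LY3214996, 163 in abemaciclib and 49.2 in vehicle, with an interaction of 0.41 ± 0.60. Klf9 had an interaction of 0.84 ± 0.46 and Per1, a clock gene that glucocorticoids induce, of 0.66 ± 0.52. Without vehicle 4 these were 0.15 for Fkbp5, 0.51 for Klf9 and 0.39 for Per1. The time of dissection is not given in the labels, and its part in these values was not tested.

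**Figure D4:**
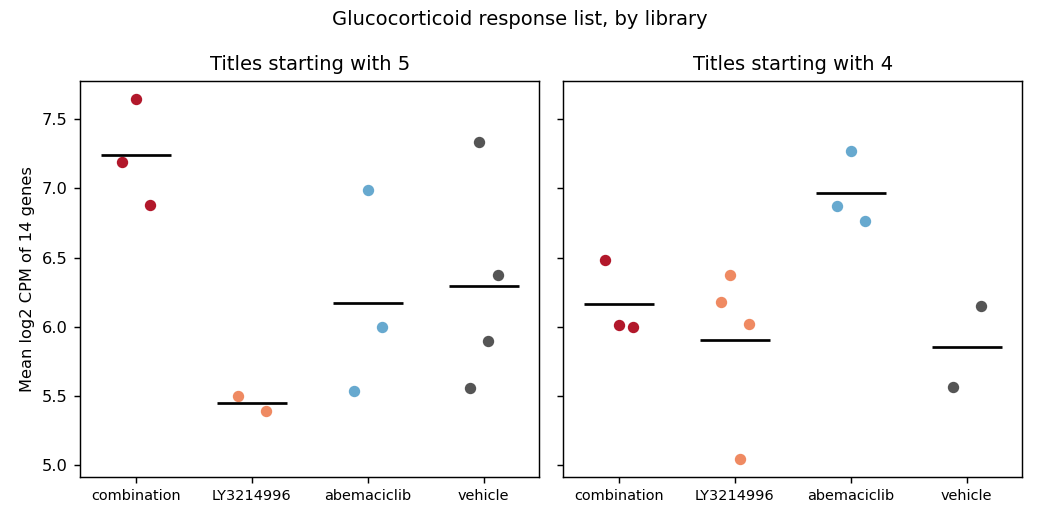
Mean log2 CPM of 14 glucocorticoid response genes in each library, by group and by the first digit of the sample title. Points are libraries and lines are means. The combination is highest where titles start with 5, at 7.24, and abemaciclib is highest where they start with 4, at 6.97.

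Ranked by p over genes whose mean log2 CPM reached 1, the first positive interactions included Bmf, Deptor, Klf10, Fam129a and Hspa1a. Bmf, a pro-apoptotic BH3-only protein, ranged from 18.6 to 33.5 CPM in the combination (median 29.7), from 12.2 to 18.6 in LY3214996 (median 13.5), from 8.49 to 21.8 in abemaciclib (median 18.7) and from 11.9 to 21.7 in vehicle (median 16.4). Only the lowest combination library lay within the range of vehicle. The differences from vehicle were 0.74 in the combination, -0.21 in LY3214996 and 0.03 in abemaciclib, and the interaction was 0.93 ± 0.28 (unadjusted p = 0.00329, adjusted p = 0.790 in edgeR). Deptor, an inhibitor of mTOR, had 240 to 369 CPM in the combination, 212 to 235 in LY3214996, 194 to 246 in abemaciclib and 204 to 271 in vehicle, with an interaction of 0.46 ± 0.15. The combination lay wholly above LY3214996. Klf10, a TGF-beta-induced repressor, had an interaction of 0.99 ± 0.32 and Fam129a one of 1.05 ± 0.33, both short of the threshold (adjusted p = 0.886 for each in edgeR). Hspa1a, an inducible heat shock protein, had an interaction of 1.95 ± 0.63 that was 1.10 without vehicle 5, a library at 43.2 CPM against 4.99 to 13.2 in the rest of vehicle. It was the highest of 15 tested heat shock genes, of which 4 had a positive and 11 a negative interaction (median -0.19). Beside these, 50.2% of all tested genes were negative.

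Markers of cell types gave their own interactions. Of 16 endothelial genes 14 had a positive interaction (median 0.51), beside 49.8% of all tested genes. At an unadjusted p under 0.05 were 0 of them, beside 3.69% of all tested genes. Their median difference from vehicle was 0.79 in the combination, 0.09 in LY3214996 and 0.31 in abemaciclib. Kdr, the VEGF receptor, ranged from 14 to 48.9 CPM in the combination (median 22.2), from 11.1 to 20.4 in LY3214996 (median 14.9), from 12.3 to 23 in abemaciclib (median 13.5) and from 10.2 to 18.2 in vehicle (median 14), with an interaction of 0.63 ± 0.34. Without combination 3 the interaction of Kdr was 0.31 and the median of the endothelial list was 0.25. Without the 6 neuron-poor libraries 11 of the 16 were positive (median 0.10). All 20 neuron and axon genes had a negative interaction (median -0.55), beside 50.2% of all tested genes. At an unadjusted p under 0.05 were 0 of them, beside 3.69% of all tested genes. The level of this list ran from 1.17 to 7.80 mean log2 CPM in the combination, from 6.55 to 8.52 in LY3214996, from 0.48 to 7.25 in abemaciclib and from 1.11 to 7.32 in vehicle. The neuron-poor libraries were thus all outside LY3214996, and their part in these interactions was not tested. Leaving out 1 library moved the median of the neuron list by over 1.5 times in 8 of 24 cases, between -0.88 without vehicle 6 and -0.19 without LY3214996 3. Without the 6 neuron-poor libraries 12 of the 20 were negative (median -0.05). Of 18 skeletal muscle genes 16 had a negative interaction (median -3.96), beside 50.2% of all tested genes, and this list was highest in abemaciclib 5, at 5.27 mean log2 CPM. Without abemaciclib 5 its median was -0.38.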

How the data were processed

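RNA from 24 libraries was analysed, 6 in each of 4 groups taken from the labels. The file the authors deposited holds whole-number counts per gene. Tools named in the submitters' processing notes are STAR, FastQC and DESeq2, with build mm10. Not given in the sources used here are the program that counted reads, its annotation and its use of strand, so overlapping or near-identical genes are uncertain. The labels name an rRNA removal kit and also polyA RNA as the molecule.

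Genes were kept by edgeR's filterByExpr, scaled by TMM and fitted with the robust quasi-likelihood model to all 24 libraries (20 residual degrees of freedom; edgeR 4.0.16, limma 3.58.1, DESeq2 1.42.0, R 4.3.3), with Benjamini-Hochberg adjustment over 15385 genes and a threshold of 0.05. Each standard error given is the absolute log2 difference divided by the square root of its F statistic in that test. It is thus derived from the same test as the p-value and is no separate estimate. CPM uses the scaled library sizes. Tested genes held at least 98.6% of the counts of each library, and 3 counts, the limit that a count of 0 allows, correspond to 0.0709 to 0.556 CPM. Such limits cover counting error only. The biological coefficient of variation was 35.9%. No pair of libraries of a group agreed within sampling noise (lowest chi-square per degree of freedom 19.9). The fit was also run on simulated counts, with differences planted in the combination alone and no outlying libraries. That run cannot show how the fit behaves with libraries such as those with albumin.

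Named genes were a fixed set, the 8 smallest p in each direction, the genes called in combination against vehicle and the 2 members of each list with the smallest p. Isg15, Oas1a, Ifit1, Oas3 and Ifit3b were added after their values were seen. Members and gene lists were chosen with earlier results of these data known. The alternatives were other scalings, filters, tools, covariates, subsets of libraries and the linear scale.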

Additional observations from a re-analysis of the deposited data

Results flagged for a closer look

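Among 284 groups of 6 libraries (55 genes and 16 lists), 17 held a library far from the other 5, and chance flags about 1 in 20 groups. Low libraries were abemaciclib 2 for Etv5 (43.9 CPM, against 56.9 to 66.4 in the rest of its group) and for Spred1 (240.4 CPM), LY3214996 3 for Spry2 (28 CPM), combination 5 for Pomk (14.9 CPM), vehicle 4 for Arsb (77.6 CPM), abemaciclib 4 for Bub1b (1.51 CPM) and abemaciclib 1 for Klf10 (24.9 CPM). LY3214996 1 was low for Dgat2 (5.50 CPM, against 12.4 to 17.3 in the rest of its group) and for Pparg (0.967 CPM). Vehicle 1 was low for Slc6a13 (2.04 CPM), and abemaciclib 5 was low for Ifit1 (8.48 CPM). High libraries were combination 3 for Spred1 (372 CPM), LY3214996 3 for Cyp2f2 (61.9 CPM) and Tm7sf2 (16.8 CPM), vehicle 4 for Klf9 (562.4 CPM) and abemaciclib 5 for Kdr (23 CPM). The mean level of the Sprouty and Spred list was high in vehicle 1 (5.88 mean log2 CPM, against 5.39 to 5.52 in the rest of vehicle).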

How the results depend on the processing

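An interaction adds the errors of 4 group means, and depth (the lowest total was 5391543 counts) and tissue makeup limit it further. No paired analysis was possible because the labels give no replicate numbers. Of the 55 genes whose interaction was followed over the settings, 35 kept its sign in all 43. The values below are counts that moved by over 1.5 times, list medians that changed sign (29 of 304) or moved by more than the SD of the list's level within groups (21), and, for single genes, sign changes alone. The cause was not tested. A further 55 list medians moved by over 1.5 times within that SD. Of the 55 genes 23 also moved by over 1.5 times when 1 library was left out, and 50 in another setting. With a list's level as covariate that list's own median is near 0 by construction. Leaving out the neuron-poor libraries or those with both Xist and Y-linked transcripts, DESeq2 without the albumin libraries, and the neuron covariate without them were chosen after seeing the data. Leaving out 1 library at a time gave 0 to 94 genes called in combination against vehicle, 0 to 1 genes called for the interaction (Cdo1, without LY3214996 1) and 440 to 854 genes with an unadjusted p under 0.05 for it. Over these, list medians ran from -0.35 to -0.15 for Sprouty and Spred genes, from -0.30 to 0.0059 for dual-specificity phosphatase genes, from -0.15 to 0.13 for other ERK output genes, from 0.012 to 0.21 for immediate early genes, from -0.084 to 0.11 for D cyclin genes, from -0.015 to 0.098 for E2F genes, from -0.45 to -0.17 for mitosis genes, from -0.27 to -0.14 for fatty acid synthesis genes, from 0.25 to 0.62 for endothelial genes, from 0.27 to 0.60 for MHC class I genes, from 0.36 to 0.84 for glucocorticoid genes, from -0.88 to -0.19 for neuron genes and from -4.72 to -0.38 for muscle genes. Interactions of single genes ran from -0.25 to 0.27 for Postn, from -0.34 to 0.33 for Ccnd1, from -0.059 to 0.042 for Lzts3 and from -0.061 to 0.089 for Arsb. Single genes with a filter of CPM above 1 in 6 libraries had interactions of 0.016 for Lzts3. With DESeq2, 51 genes were called for the interaction and 272 genes were called in combination against vehicle. With DESeq2 and no albumin libraries, 1 gene (Cdo1) was called for the interaction and 490 genes were called in combination against vehicle. List medians with DESeq2 and no albumin libraries were 0.098 for dual-specificity phosphatase genes. Single genes with DESeq2 and no albumin libraries had interactions of -0.36 for Postn, 0.057 for Lzts3, -0.0028 for Pomk and -0.025 for Arsb. With the adipocyte level as covariate, 1 gene (H2-T23) was called for the interaction, 2147 genes had an unadjusted p under 0.05 for the interaction and 1 gene was called in combination against vehicle. List medians with the adipocyte level as covariate were -0.078 for fatty acid synthesis genes, -0.095 for adipocyte genes, 0.98 for endothelial genes and -0.33 for muscle genes. Single genes with the adipocyte level as covariate had interactions of 0.060 for Nf1, 0.029 for Spry2, 0.052 for Lzts3, -0.035 for Arsb and 0.18 for Plin1. With limma-voom and sample quality weights, 29 genes were called in combination against vehicle. List medians with limma-voom and sample quality weights were -0.24 for other ERK output genes, -0.19 for immediate early genes, -0.13 for D cyclin genes, -0.077 for E2F genes, 0.035 for endothelial genes, 0.13 for MHC class I genes, 0.042 for neuron genes and -1.04 for muscle genes. Single genes with limma-voom and sample quality weights had interactions of -0.29 for Postn, -0.59 for Ccnd1 and -0.44 for Oas3. Single genes on the linear CPM scale had interactions of 0.66 CPM for Lzts3 and 0.35 CPM for Fbn2. With the neuron level as covariate, 37 genes were called in combination against vehicle. List medians with the neuron level as covariate were -0.030 for D cyclin genes, 0.010 for neuron genes and -2.39 for muscle genes. Single genes with the neuron level as covariate had interactions of -0.16 for Postn and -0.15 for Ccnd1. With no count filter, 1931 genes had an unadjusted p under 0.05 for the interaction and 6 genes were called in combination against vehicle. List medians with no count filter were 0.039 for dual-specificity phosphatase genes. Single genes with no count filter had interactions of -0.0085 for Postn. With sex as a term, 43 genes were called in combination against vehicle. With the muscle level as covariate, 12 genes were called in combination against vehicle. List medians with the muscle level as covariate were 0.042 for muscle genes. Single genes with the muscle level as covariate had interactions of -0.091 for Postn and 0.0055 for Lzts3. Single genes with the title series as a term had interactions of -0.0029 for Postn and 0.037 for Lzts3. In titles that start with 4, 8 of the 19 genes lay beyond the sum and 0 genes were called in combination against vehicle. List medians in titles that start with 4 were 0.16 for dual-specificity phosphatase genes, 0.33 for other ERK output genes, -0.16 for immediate early genes, 0.28 for D cyclin genes, 0.11 for mitosis genes, 0.010 for fatty acid synthesis genes, -0.82 for adipocyte genes, -0.95 for glucocorticoid genes and -0.47 for muscle genes. Single genes in titles that start with 4 had interactions of -0.18 for Etv1, 0.094 for Spry2, 0.14 for Spred1, 0.14 for Dusp4, -0.16 for Atf3, 0.0035 for Thbs1, 0.15 for Fbn2, -0.57 for Klf9, -0.49 for Fkbp5 and -0.35 for Per1. In titles that start with 5, 897 genes had an unadjusted p under 0.05 for the interaction and 0 genes were called in combination against vehicle. List medians in titles that start with 5 were -0.48 for Sprouty and Spred genes, 0.085 for dual-specificity phosphatase genes, -0.18 for other ERK output genes, -0.33 for D cyclin genes, -0.94 for cholesterol genes, -2.52 for adipocyte genes, 0.046 for endothelial genes, 1.94 for glucocorticoid genes and -5.97 for muscle genes. Single genes in titles that start with 5 had interactions of 0.038 for Nf1, -0.62 for Postn, 0.17 for Lzts3, -0.22 for Pomk, -0.15 for Arsb, -0.69 for Ccnd1, -0.13 for Kdr and -2.09 for Oas3. Single genes with upper quartile scaling had interactions of 0.0088 for Lzts3. Without the deepest and shallowest library, 943 genes had an unadjusted p under 0.05 for the interaction and 1 gene was called in combination against vehicle. List medians without the deepest and shallowest library were 0.0020 for dual-specificity phosphatase genes. Single genes without the deepest and shallowest library had interactions of 0.026 for Nf1, -0.023 for Postn and 0.059 for Lzts3. Without the libraries with both Xist and Y-linked transcripts, 70 genes were called in combination against vehicle. List medians without the libraries with both Xist and Y-linked transcripts were 0.0092 for mitosis genes. Single genes without the libraries with both Xist and Y-linked transcripts had interactions of -0.26 for Postn, 0.073 for Lzts3, -0.010 for Pomk and -0.018 for Arsb. Without the albumin libraries, 108 genes were called in combination against vehicle. List medians without the albumin libraries were 0.089 for dual-specificity phosphatase genes. Single genes without the albumin libraries had interactions of -0.37 for Postn, 0.043 for Lzts3, -0.0091 for Pomk and -0.035 for Arsb. Without the albumin libraries and with the neuron level as covariate, 220 genes were called in combination against vehicle. List medians without the albumin libraries and with the neuron level as covariate were 0.14 for dual-specificity phosphatase genes, -0.14 for other ERK output genes, -0.044 for D cyclin genes and 0.054 for neuron genes. Single genes without the albumin libraries and with the neuron level as covariate had interactions of -0.58 for Postn, 0.0054 for Lzts3, -0.00026 for Pomk, -0.045 for Arsb and -0.20 for Ccnd1. Without the neuron-poor libraries, 0 genes were called in combination against vehicle. List medians without the neuron-poor libraries were -0.33 for other ERK output genes, -0.21 for immediate early genes, -0.081 for D cyclin genes, -0.083 for E2F genes, 0.071 for interferon genes, 0.075 for MHC class I genes and -0.64 for muscle genes. Single genes without the neuron-poor libraries had interactions of -0.71 for Postn, -0.96 for Ccnd1 and -0.015 for Ifit3b.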
